A study of Homo sapiens with 4 samples.

Results

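A set of 10 genes for enzymes that inactivate or convert androgens was followed in darolutamide-resistant LNCaP (DaroR) cells after knockdown of the long noncoding RNA LOC730101. The genes were taken by symbol from the deposited count table, in which 10 of 60606 gene rows carried these names. They comprise the UDP-glucuronosyltransferase genes UGT2B15, UGT2B17, UGT2B28, UGT2B10 and UGT2B11, the aldo-keto reductase gene AKR1C3, the 5α-reductase gene SRD5A1 and its relative SRD5A3, the 3β-hydroxysteroid dehydrogenase gene HSD3B2 and the steroid sulfatase gene STS. Of the 10 genes, 8 had enough counts to be tested, UGT2B10 and HSD3B2 being the exceptions.

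The study asked what LOC730101 does in prostate cancer cells that have become resistant to darolutamide, an antiandrogen drug. Poly(A) RNA was sequenced from 2 libraries of LNCaP-DaroR cells transfected with control siRNA (siControl) and 2 of the same cells transfected with a pool of siRNAs against LOC730101 (siLOC730101). Both groups therefore shared the resistant background, which the study derived from LNCaP, an androgen-responsive prostate cancer cell line, by long culture in rising darolutamide and then kept in medium with the drug. The labels do not say whether the drug was in the medium of these 4 libraries. The model is 1 resistant line, growth medium held serum for every library, a library of parental LNCaP cells is not part of these 4, and the labels do not say whether the 2 libraries of a group came from separate cultures. The p-values below therefore measure only the spread between these libraries, which may be technical.

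Androgens are made and destroyed by short enzymatic routes. In prostate cells, STS releases steroid sulfates, 3β-hydroxysteroid dehydrogenases and AKR1C3 carry the precursors towards testosterone, and 5α-reductase turns testosterone into dihydrotestosterone, the strongest natural androgen. UGT2B15, UGT2B17 and UGT2B28 end the signal by attaching glucuronic acid to dihydrotestosterone and its metabolites, and UGT2B15 and UGT2B17 are known as genes that androgens repress in LNCaP cells.

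Library totals ran from 39213498 to 53368158 counts, and the siLOC730101 mean was 80.4% of the siControl mean. LOC730101, found in the table by its position as ENSG00000216775 (GRCh38, chr6:52664366-52669155), was counted 2560 and 2370 times with control siRNA and 633 and 680 times with siLOC730101. This is a fall of 66.0% in normalized CPM, the count scaled by the library's effective size, with a log2 fold change of -1.56 (SE 0.116) and an adjusted p of 4.3e-06 in edgeR's quasi-likelihood test, so the labels and the target gene pointed the same way. All 8 luminal prostate markers were tested, at a summed 6395 to 7327 normalized CPM per library. Against this, 6 hepatocyte markers summed to 4.76 to 6.62, 3 basal markers to 0.195 to 0.632 and 4 fibroblast and smooth muscle markers to 11.3 to 15.0. The 3 leukocyte markers summed to 0 to 0.256 and 3 neuroendocrine markers to 2.09 to 2.95. KRT5, TP63, COL1A2, PTPRC, CD3E, CHGA and INSM1 had no count in any library. The other genes of these non-hepatocyte lists did have counts. Per library, COL1A1 had 451 to 797, SYP 86 to 128, ACTA2 8 to 32, KRT14 8 to 24, CD14 0 to 12 and DCN 0 to 2. Hepatocytes are the main site of UGT2B expression in the body, and 4 of their 6 markers were tested. ALB, their defining transcript, had 0 and 2 counts in siControl and 8 and 0 in siLOC730101, and APOA2 had 2 counts in all, whereas TTR had 106 to 164 counts per library and APOA1 27 to 49, both with overlapping groups. CYP2E1 went from 78 and 34 counts to 106 and 73 (log2 fold change 1.05, adjusted p 0.389 in edgeR) and SERPINA1 from 12 and 12 to 18 and 16 (log2 fold change 0.84, adjusted p 0.816 in edgeR), with both siLOC730101 libraries above both siControl libraries in normalized CPM. Their part in the results was not tested.

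The UGT2B genes of this set lie within a single cluster on chromosome 4. In the coordinates of the table (GRCh38), UGT2B17 spans chr4:68537173-68576413 and UGT2B15 chr4:68646597-68670652, both on the minus strand. UGT2B10 spans chr4:68815994-68832023 on the plus strand, UGT2B11 chr4:69199951-69214748 on the minus strand and UGT2B28 chr4:69280475-69295050 on the plus strand. To show how alike and how different the control regions of neighbouring members are, the 250 bases before the start site are printed for UGT2B15, UGT2B11 and UGT2B10 from the RefSeq promoter windows (GRCh38.p14), 5′ to 3′ on the strand of each gene. The positions are chr4:68670653-68670902 (minus), chr4:69214749-69214998 (minus) and chr4:68815744-68815993 (plus). Capitals mark AGGTCA (a nuclear receptor half-site), AGAACA (a half-site of steroid hormone response elements) and TGTTTAC (a forkhead core), searched on both strands, so that GTAAACA is the last of these read from the other strand.
UGT2B15: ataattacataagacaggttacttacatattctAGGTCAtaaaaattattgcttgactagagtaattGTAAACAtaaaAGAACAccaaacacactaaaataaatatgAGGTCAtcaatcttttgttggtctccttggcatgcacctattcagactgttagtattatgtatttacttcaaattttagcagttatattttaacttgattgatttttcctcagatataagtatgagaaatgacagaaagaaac
UGT2B11: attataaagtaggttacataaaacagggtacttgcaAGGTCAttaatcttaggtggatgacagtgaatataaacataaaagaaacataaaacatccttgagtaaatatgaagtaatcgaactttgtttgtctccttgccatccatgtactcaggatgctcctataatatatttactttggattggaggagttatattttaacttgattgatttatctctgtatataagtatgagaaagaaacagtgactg
UGT2B10: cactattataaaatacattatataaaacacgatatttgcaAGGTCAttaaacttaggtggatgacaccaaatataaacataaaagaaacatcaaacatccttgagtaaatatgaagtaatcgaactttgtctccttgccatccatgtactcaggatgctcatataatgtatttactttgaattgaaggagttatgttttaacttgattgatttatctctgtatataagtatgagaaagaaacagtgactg

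The window of UGT2B15 held AGGTCA at -217 and -143, the forkhead core at -183 and AGAACA at -172, none overlapping another. The windows of UGT2B11 and UGT2B10 each held AGGTCA alone, at -214 and -210. Among all 35116 RefSeq windows, which run from 250 bases before to 50 after a start, 13.8% held AGGTCA, 14.8% AGAACA and 3.42% TGTTTAC. Over the whole windows, UGT2B10 and UGT2B11 shared 92.6% of aligned bases and UGT2B15 shared 80.1% with UGT2B11 and 79.1% with UGT2B10. Windows were found for 8 of the 10 genes, and UGT2B17 and UGT2B28 were the others.

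The transcripts are also close copies, which limits what a count can say. Aligned over their lengths, the transcripts of UGT2B11 and UGT2B28 (GENCODE 44 on GRCh37) were 96.9% identical, those of UGT2B15 and UGT2B17 92.1%, and UGT2B15 and UGT2B28 83.1%. The longest stretch without a difference between UGT2B28 and UGT2B11 was 110 bases in the coding part of exon 1 of 6, from transcript position 120 to 229 in both. On GRCh37 it lies at chr4:70146312-70146421 (plus) in UGT2B28 and chr4:70080238-70080347 (minus) in UGT2B11. It is printed here because a short read from it could belong to either gene.
UGT2B28 and UGT2B11: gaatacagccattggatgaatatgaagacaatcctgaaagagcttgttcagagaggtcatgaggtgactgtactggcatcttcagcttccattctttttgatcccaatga

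Of all windows of 75 bases in a transcript, 15.0% of UGT2B28, 27.6% of UGT2B11, 17.9% of UGT2B15 and 15.3% of UGT2B17 occurred unchanged in the transcripts of another gene. Those of UGT2B15 and UGT2B17 were each other's alone, whereas those of UGT2B28 and UGT2B11 also lay in UGT2B pseudogenes and in ENSG00000250696. This row lies on the opposite strand to UGT2B11, shares 435 of its exon bases (18.5%) and had 0 counts in every library. It was the partner with the most shared windows of UGT2B11 at 75 and at 150 bases. The UGT2B11 shares may therefore include bases of its own locus and are not a measure of close copies alone. At 150 bases the shares were 0%, 7.92%, 4.74% and 4.03%. The read length was not given in the sources used here.

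Levels spanned a wide range between enzymes. Per kilobase of annotated exon, the siControl mean of SRD5A1 was 10.3 normalized CPM, that of STS 2.26, SRD5A3 1.78 and AKR1C3 0.636. The glucuronosyltransferases followed, with UGT2B17 at 0.531, UGT2B15 at 0.517, UGT2B11 at 0.387 and UGT2B28 at 0.233 normalized CPM per kilobase. HSD3B2 stood at 0.0244 from a single library, and UGT2B10 at 0. In siControl, neighbouring genes in this order did not overlap from SRD5A1 down to UGT2B17, nor between UGT2B28 and HSD3B2. The libraries overlapped between UGT2B17 and UGT2B15, between UGT2B15 and UGT2B11, between UGT2B11 and UGT2B28, and between HSD3B2 and UGT2B10. Among the 19349 tested genes, SRD5A1 stood at the 77.6th percentile of normalized CPM per kilobase, STS at the 47.9th, SRD5A3 at the 43.9th and AKR1C3 at the 28.5th, while the tested UGT2B genes stood between the 14.3th and the 25.7th. The exon length is the union over all annotated transcripts, so long unused exons lower the value per kilobase.

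**Figure D1:**
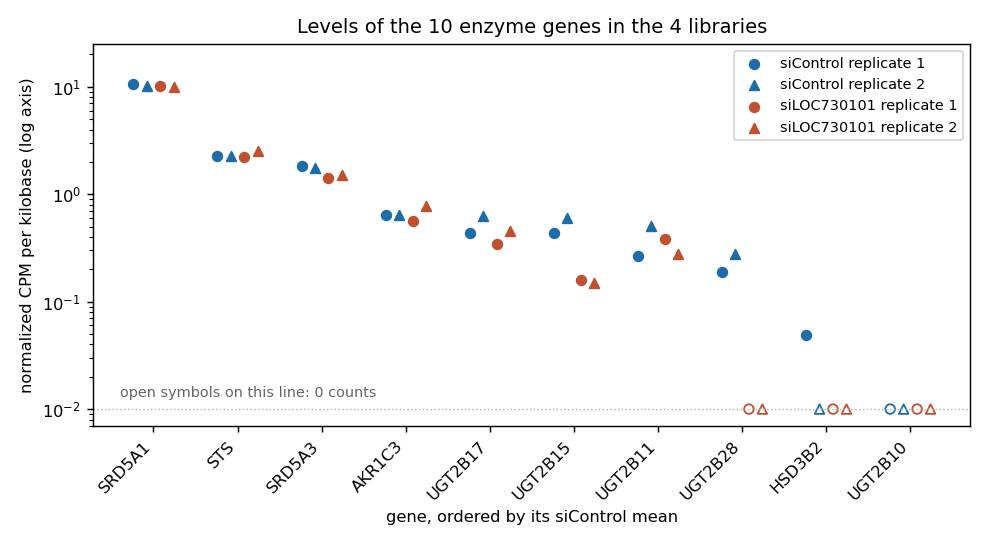
Each point is 1 library of siControl (blue) or siLOC730101 (red), as normalized CPM per kilobase on a log axis, for the 10 enzyme genes ordered by their siControl mean, with libraries of 0 counts drawn as open symbols on the dotted line. SRD5A1 stands near 10 in every library, the UGT2B genes at or below 0.631, and UGT2B28 has 0 counts in both siLOC730101 libraries.

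No enzyme gene was called changed after LOC730101 knockdown. Apart from UGT2B28, whose difference was built in by the filter on low counts, the androgen-inactivating UGT2B15 had the lowest fold change of the set. In edgeR's quasi-likelihood test, 0 of the 8 tested genes had an adjusted p under 0.05, against 0.284% of all tested genes in either direction and 0.0724% in the lower direction. UGT2B28 passed the filter on low counts only through the siControl libraries and so had to differ, and it is left out of the next 2 counts. Of the other 7 members, 1 (UGT2B15) was lower at an unadjusted p under 0.05, beside 4.39% of all tested genes. Both siLOC730101 libraries lay below both siControl libraries for 3 of these 7 (UGT2B15, SRD5A1 and SRD5A3), beside 20.5% of all tested genes. DESeq2 also called 0 members and left 5 of them, the UGT2B genes and AKR1C3, without an adjusted p. The unadjusted p of UGT2B15 in DESeq2 was 0.0184. The median log2 fold change of the 8 members, UGT2B28 among them, was -0.25, beside -0.0021 over all tested genes. Because UGT2B28 had to differ, this median is no test of a shift of the set. Leaving out siControl replicate 1 or 2 moved the median of the members to -0.43 or -0.094.

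UGT2B15, which glucuronidates dihydrotestosterone and its metabolite androstanediol, was counted 50 and 60 times in siControl and 14 and 12 times in siLOC730101. In normalized CPM these are 0.925 and 1.28 against 0.341 and 0.316, so the groups did not overlap and the siLOC730101 mean was 29.8% of the siControl mean (1.10 ± 0.252 against 0.328 ± 0.0174, SD, n = 2 each). The log2 fold change was -1.74 (SE 0.644, 95% interval -3.11 to -0.36), with an unadjusted p of 0.0165 and an adjusted p of 0.301 in edgeR. The interval lies below 0, yet the difference did not pass the test across all genes. Over 14 other ways of processing, the log2 fold change of UGT2B15 kept its sign and the adjusted p ran from 0.231 to 0.775. Fewer cells that express a gene and less RNA per cell cannot be told apart in bulk RNA, here or for any other gene.

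UGT2B28, a glucuronosyltransferase with activity on androgens and estrogens, was counted 19 and 24 times in siControl and 0 times in both siLOC730101 libraries. The siControl libraries stood at 0.351 and 0.513 normalized CPM. With equal normalized CPM in both groups, 33.7 counts would have fallen in the siLOC730101 libraries together. Set against a limit of 3 counts over that group, with the siControl counts taken as exact, UGT2B28 was at least 11.2-fold lower after the knockdown. This bound covers counting error in siLOC730101 only. The gene passed the filter on low counts only through siControl and so had to differ. Neither the bound nor its p-values are therefore a test of a fall. If both mates of a fragment were counted, the limit would be 6 counts and the bound 5.62-fold. Of all tested genes, 13 had 0 counts in both siLOC730101 libraries and 3 had 0 counts in both siControl libraries. With at least the 43 counts of UGT2B28 in the other group, these were 5 and 0. The adjusted p of UGT2B28 was 0.131 in edgeR (unadjusted p 0.0017). It fell under 0.05 with no filter beyond 1 count (adjusted p 0.0402) and when the replicate number was added as a block (0.0351), both in edgeR. These settings called 113 of 31960 and 167 of 19349 genes lower, and the labels do not say what a replicate number marks.

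UGT2B17, the closest relative of UGT2B15 and likewise an androgen-conjugating enzyme, was counted 60 and 76 times in siControl and 36 and 44 times in siLOC730101, or 1.11 and 1.62 against 0.876 and 1.16 normalized CPM. The groups overlapped, and the log2 fold change of -0.42 (SE 0.479, 95% interval -1.44 to 0.60) had an adjusted p of 0.822 in edgeR. Without siControl replicate 1 it was -0.67, without siControl replicate 2 -0.12, without siLOC730101 replicate 1 -0.23 and without siLOC730101 replicate 2 -0.64. UGT2B11, which has little known activity on androgens, was counted 34 and 56 times in siControl and 37 and 25 times in siLOC730101. Its libraries overlapped at 0.629 and 1.20 against 0.901 and 0.658 normalized CPM, with a log2 fold change of -0.22 (SE 0.594, 95% interval -1.49 to 1.04, adjusted p 0.943 in edgeR). Without siControl replicate 2 the value for UGT2B11 was 0.31. UGT2B10, an enzyme of nicotine and drug clearance in liver, had 0 counts in every library.

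**Figure D2:**
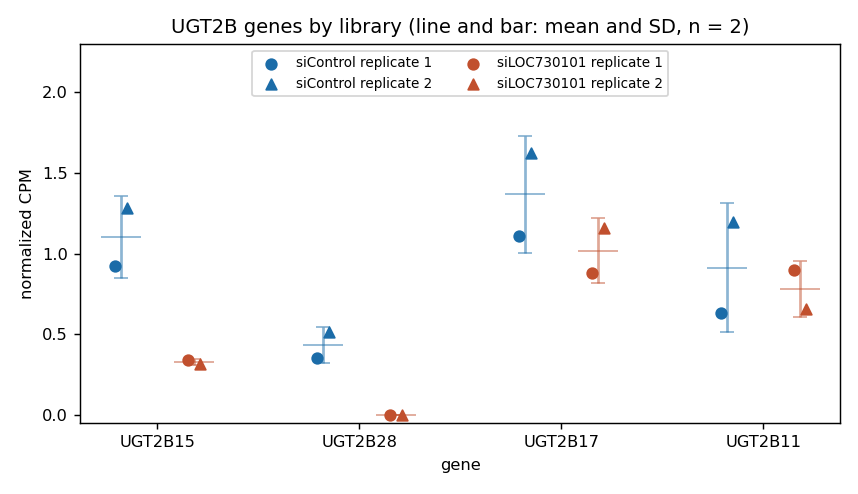
Normalized CPM of the 4 detected UGT2B genes in each siControl (blue) and siLOC730101 (red) library, with the mean and SD of the 2 libraries as a line and a bar. UGT2B15 separates the groups, beside 20.5% of all tested genes with both siLOC730101 libraries below both siControl libraries. UGT2B28 also separates them, but it passed the filter on low counts only through siControl and so had to differ. UGT2B17 and UGT2B11 overlap.

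The libraries also differed in how the UGT2B counts were divided. Of the counts on UGT2B15, UGT2B17, UGT2B28 and UGT2B11 (163, 216, 87 and 81 in the order siControl 1 and 2, siLOC730101 1 and 2), UGT2B15 took 30.7% and 27.8% in siControl and 16.1% and 14.8% in siLOC730101. The exact 95% binomial intervals of the siControl shares were 23.7 to 38.4% and 21.9 to 34.3%, and those of the siLOC730101 shares 9.09 to 25.5% and 7.90 to 24.4%, so the intervals of the groups overlap. UGT2B28 took 11.7% and 11.1% in siControl and 0% in siLOC730101, where a count of 0 allows up to 4.15% and 4.45% as the upper exact limits. These limits and intervals treat every count as a separate fragment, and would be wider if both mates of a fragment were counted. UGT2B17 took 36.8% and 35.2% in siControl and 41.4% and 54.3% in siLOC730101, and UGT2B11 20.9% and 25.9% against 42.5% and 30.9%. Shares are parts of a whole, so fewer counts of UGT2B15 and of UGT2B28, which had to differ, raise the other shares. In mean normalized CPM, UGT2B17 was 1.37 in siControl and 1.02 in siLOC730101. The counts of UGT2B15 per count of UGT2B17 were 0.833 and 0.789 in siControl and 0.389 and 0.273 in siLOC730101. Those of UGT2B11 overlapped, at 0.567 and 0.737 in siControl and 1.03 and 0.568 in siLOC730101. With 2 libraries against 2, an exact two-sided permutation test cannot give a p under 0.333, so none is given for these shares.

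Sums over close copies were fitted because a misplaced read then stays in the sum. All 12 UGT2B rows of the table, of which 6 had counts, summed to 165 and 216 counts in siControl and 87 and 101 in siLOC730101. The groups did not overlap (3.05 and 4.61 against 2.12 and 2.66 normalized CPM), beside 20.5% of all tested genes that were lower without overlap. The log2 fold change was -0.68 (SE 0.312, 95% interval -1.35 to -0.016), with an adjusted p of 0.450 in edgeR. The sum holds the counts of UGT2B28 (19 and 24 against 0 and 0), which had to differ, so part of this fall was built in. Leaving out siControl replicate 1 gave -0.95 and leaving out siControl replicate 2 gave -0.35. UGT2B4, a bile acid and steroid glucuronosyltransferase, contributed 2 and 0 counts in siControl and 0 and 18 in siLOC730101. In sums chosen after the counts were seen, UGT2B15 and UGT2B17 together gave a log2 fold change of -0.87 (SE 0.380, adjusted p 0.417 in edgeR), from 110 and 136 to 50 and 56 counts. UGT2B28 and UGT2B11 together gave -0.78 (SE 0.524, adjusted p 0.644 in edgeR), from 53 and 80 to 37 and 25 counts. Both sums kept the groups apart, beside the same 20.5% of all tested genes, and the second holds UGT2B28, which had to differ. A sum always changes less than its lower member, so the smaller changes are no test.

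Of the enzymes that supply active androgens, SRD5A1 and STS had narrow intervals around 0, AKR1C3 a wide one, and HSD3B2 could not be tested. SRD5A1, which makes dihydrotestosterone from testosterone and related steroids, lies at chr5:6633427-6674386 (GRCh38, plus strand) and is the most expressed gene of the set. It stood at 80.1 and 77.5 normalized CPM in siControl and 77.4 and 75.6 in siLOC730101, from 2870 to 4332 counts per library. The siLOC730101 libraries lay just below the siControl libraries, with a log2 fold change of -0.043 (SE 0.0837, 95% interval -0.22 to 0.14, adjusted p 0.916 in edgeR). The interval leaves out a change of the size fitted for UGT2B15 in either direction.

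SRD5A3, a polyprenol reductase needed for N-glycosylation and grouped with the 5α-reductases, lies at chr4:55346213-55373100 (plus strand). It had 14.0 and 13.4 normalized CPM in siControl and 10.9 and 11.7 in siLOC730101, which is 82.4% of the siControl mean without overlap. The log2 fold change was -0.28 (SE 0.154, 95% interval -0.61 to 0.048), with an unadjusted p of 0.0892 and an adjusted p of 0.548 in edgeR, and over 14 other ways of processing it ran from -0.33 to -0.22. Its exons share 1787 bases with ENSG00000288695 on the same strand, which had 3 to 8 counts per library. They share 1082 bases with SRD5A3-AS1 on the opposite strand, which had 61 and 34 counts in siControl and 15 and 17 in siLOC730101. The counting command shows no strand setting, so reads of SRD5A3 and SRD5A3-AS1 in the shared bases cannot be told apart.

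STS, which frees dehydroepiandrosterone and estrone from their sulfates, lies at chrX:7147237-7804358 (plus strand). Its libraries overlapped at 28.1 and 27.7 normalized CPM in siControl and 27.3 and 31.1 in siLOC730101, with a log2 fold change of 0.066 (SE 0.115, 95% interval -0.18 to 0.31, adjusted p 0.903 in edgeR). AKR1C3, which reduces androstenedione to testosterone, lies at chr10:5035354-5107686 (plus strand) and had 135 and 116 counts in siControl and 90 and 115 in siLOC730101. At 2.50 and 2.48 against 2.19 and 3.03 normalized CPM the groups overlapped, with a log2 fold change of 0.068 (SE 0.322, 95% interval -0.62 to 0.75, adjusted p 0.972 in edgeR). Both values changed sign without siLOC730101 replicate 2, to -0.035 for STS and -0.19 for AKR1C3.

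AKR1C1 and AKR1C2, relatives of AKR1C3 that inactivate progesterone and dihydrotestosterone, were nearly identical to each other (97.2% of aligned transcript bases) and less so to AKR1C3 (89.5% and 88.0%). AKR1C1 had 217 and 376 counts in siControl and 188 and 226 in siLOC730101 (log2 fold change -0.19, adjusted p 0.883 in edgeR). AKR1C2 had 268 and 348 counts against 192 and 196 (log2 fold change -0.33, adjusted p 0.687 in edgeR). The sum over the family gave -0.21 (SE 0.197, 95% interval -0.63 to 0.21, adjusted p 0.778 in edgeR) with overlapping groups, and 0.15 without siControl replicate 2.

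HSD3B2, the adrenal and gonadal 3β-hydroxysteroid dehydrogenase at chr1:119414931-119423035 (plus strand), had 6 counts in siControl replicate 1 and 0 elsewhere, and was too low to test. HSD3B1, its counterpart in placenta and peripheral tissue, had 0 and 16 counts in siControl and 6 and 0 in siLOC730101, and the pseudogene HSD3BP5 had 0 and 14 counts in siControl and 0 in siLOC730101. The sum of the HSD3B rows was 6 and 30 counts against 6 and 0, and a difference was not detectable at this depth.

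**Figure D3:**
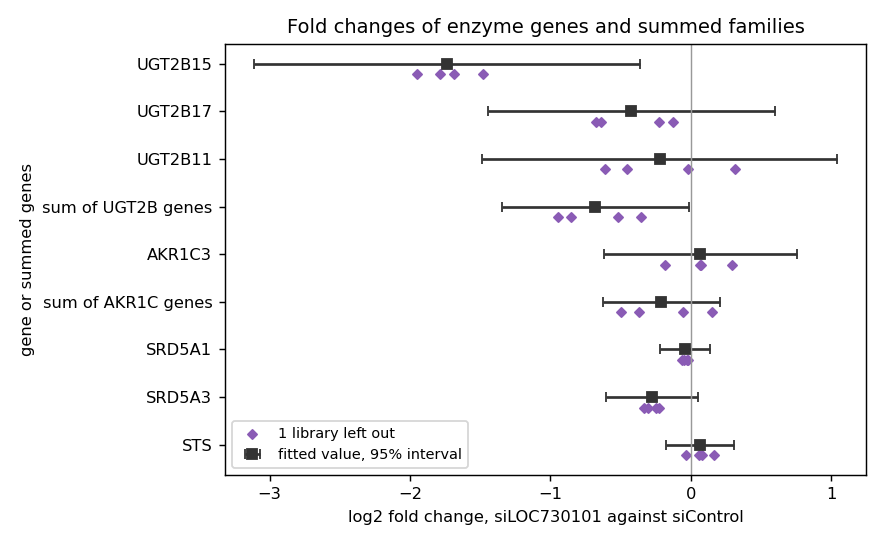
Log2 fold change of siLOC730101 against siControl (squares, bars for the 95% interval) for 7 tested members and the UGT2B and AKR1C sums, with the values after leaving out 1 library each as diamonds. UGT2B28 is not drawn because its siLOC730101 libraries held 0 counts. UGT2B15, UGT2B17, SRD5A1, SRD5A3 and the UGT2B sum lie below 0 with every library left out, and the SRD5A1 interval is the narrowest. The UGT2B sum includes UGT2B28, which had to differ.

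The precision differed widely between the members. Of the 6102 tested genes with a mean of 10 to 100 counts, the range of the UGT2B genes, 0 were called in either direction in edgeR, the lowest adjusted p being 0.0508, and their median SE was 0.731 on the log2 scale. Between 100 and 1000 counts, 1 of 5026 genes was called lower and 2 higher, and between 1000 and 10000 counts, 12 of 6915 were called lower and 31 higher. A change in a UGT2B gene therefore had to be large to be called at this depth, whereas SRD5A1 and STS had an SE of 0.0837 and 0.115.

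The wider pathway gave no called gene either. Among 17 other glucuronosyltransferase genes, 10 had no count and 2 were tested. UGT1A1, the bilirubin-conjugating enzyme, had 52 and 29 counts in siControl and 89 and 32 in siLOC730101 (log2 fold change 0.92, adjusted p 0.584 in edgeR), and UGT8, which makes galactosylceramide, stood at 5.66 normalized CPM in both groups (adjusted p 0.9998 in edgeR). The UGT1A genes share their last exons, so their counts are uncertain. Of 8 genes that make, carry or use UDP-glucuronic acid or remove glucuronides, 7 were tested and 0 were called, with a median log2 fold change of -0.020. The largest changes were 0.090 for the phosphoglucomutase PGM2 (adjusted p 0.756) and -0.086 for the β-glucuronidase GUSB (adjusted p 0.771), both in edgeR. UGDH, which makes the UDP-glucuronic acid that every UGT enzyme spends, stood at 91.9 normalized CPM in siControl and 91.4 in siLOC730101.

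Of 36 other genes of steroid synthesis and conversion, 23 were tested and 0 were called, while 4 were higher (HSD17B14, TSPO, CYB5A and FDXR) and 1 lower (H6PD) at an unadjusted p under 0.05, beside 6.43% of all tested genes in the higher and 4.39% in the lower direction. The median log2 fold change was 0.055. HSD17B14, which oxidizes estradiol and related steroids, had the largest, at 0.61 (SE 0.165, adjusted p 0.142 in edgeR), from 10.2 to 15.6 normalized CPM. HSD17B6, which oxidizes androstanediol, followed with 0.45 (SE 0.444, adjusted p 0.787 in edgeR). HSD17B14, TSPO, a mitochondrial cholesterol-binding protein, and CYB5A, a cofactor of steroid 17,20-lyase, were called higher with the replicate block and with no filter beyond 1 count. These settings called 485 of 19349 and 324 of 31960 genes higher, beside 41 in the main fit. Without siLOC730101 replicate 1, the log2 fold change was 0.79 for HSD17B14, 0.64 for TSPO, 0.47 for CYB5A, 0.45 for HSD17B8 and 0.42 for FDXR. CYP17A1 and SRD5A2, which make androgen precursors and dihydrotestosterone in other tissues, had at most 4 counts in any library, and HSD17B3, the testicular enzyme of testosterone synthesis, had 0.

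Of 11 genes of steroid sulfation and sulfatase activation, 8 were tested and 0 were called (SLC35B2 and SUMF1, 2 of 8 genes, were higher at an unadjusted p under 0.05, beside 6.43% of all tested genes), with a median log2 fold change of 0.094. SLC35B2, the carrier of the sulfate donor into the Golgi, had 0.26 (SE 0.0940, adjusted p 0.288 in edgeR), and 0.37 without siLOC730101 replicate 1. SULT2B1, a hydroxysteroid sulfotransferase, had 0.19 (SE 0.264, adjusted p 0.871 in edgeR). SUMF1, which activates sulfatases, STS among them, went from 81.7 to 92.3 normalized CPM.

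All 12 genes of a list of androgen signalling and response were tested and 0 were called, with a median log2 fold change of 0.028. At an unadjusted p under 0.05 in edgeR, 2 were higher (FKBP5 among them) and 1 lower (SLC45A3). Of all tested genes, 6.43% were higher and 4.39% lower at that threshold. SLC45A3, a prostate-restricted sugar transporter, had -0.24 (SE 0.0794, adjusted p 0.236 in edgeR), and -0.32 without siLOC730101 replicate 2. With the replicate block SLC45A3 was called lower (adjusted p 0.0211 in edgeR), as were 167 of all 19349 tested genes. FKBP5, a co-chaperone of steroid receptors, had 0.19 (SE 0.0797, adjusted p 0.379 in edgeR). The log2 fold changes of this list lay between -0.24 and 0.19.

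**Figure D4:**
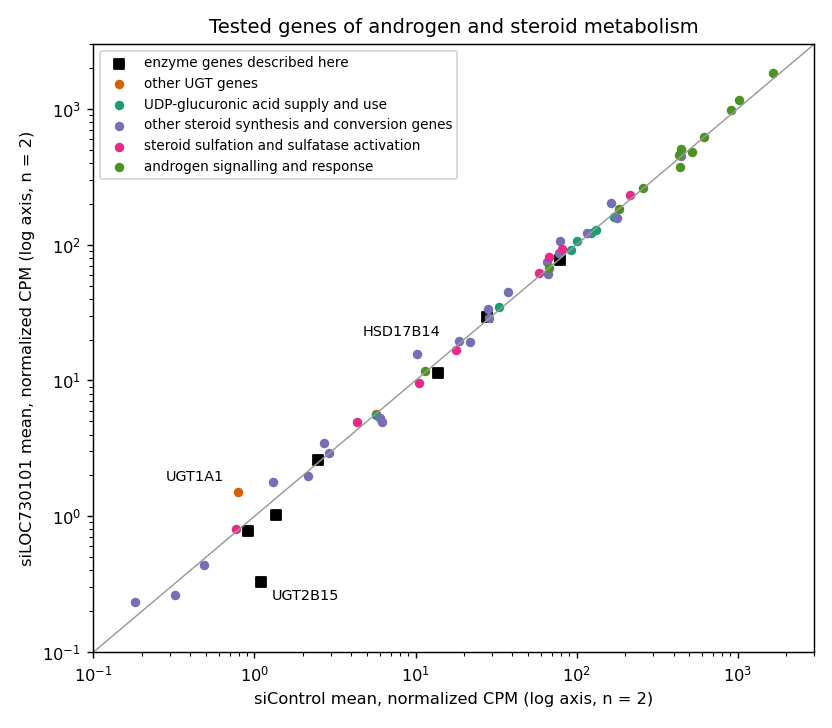
Mean normalized CPM of siControl (x axis) and siLOC730101 (y axis), both log axes, for the tested genes of the set (black squares) and of 5 related lists (coloured points), with the line of equal levels. UGT2B15 lies furthest below the line among the genes drawn. UGT2B28, with 0 counts in siLOC730101, is not drawn.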

How the data were processed

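Poly(A) RNA of 4 LNCaP-DaroR libraries was analysed, 2 for each siRNA. The values are raw gene counts that the authors deposited after trimming with Trim Galore and counting with featureCounts 2.0.1. The table's header names hg38 and GENCODE 41, whereas the study's methods name an earlier build and release. The methods name STAR as the aligner, and the submitters' processing notes name BWA. Neither pairing of mates nor strand is set in the recorded command, and 66.0 to 70.1% of values from 1 to 20 were even, so mates may have been counted separately and fragments may be fewer than counts. All count columns belonged to the 4 libraries, and every row had a gene name.

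Counts were fitted in R 4.3.3 with edgeR 4.0.16 (filterByExpr, TMM, quasi-likelihood F test, condition as the only term), with Benjamini-Hochberg adjustment over 19349 genes and a call at an adjusted p under 0.05. The filter was at 0.229 CPM in 2 libraries. Normalized CPM is the count divided by the TMM-scaled library size and multiplied by 1e6, and log2 fold changes are siLOC730101 against siControl. Near-identical families were also summed and refitted. DESeq2 1.42.0 was an alternative. The chi-square per degree of freedom between libraries of a group was 10.6 and 13.0, so no library was a copy of another. Binomial intervals cover counting error only, and the bound against 0 counts covers that of siLOC730101 only. Intervals of fold changes include the fitted spread between libraries. Transcripts and promoters were read with Python 3.11.15 and Biopython 1.88.

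The members and lists were chosen with earlier results of these data known. Named were all members, family genes with 10 or more counts, and of each list the called genes, the 2 tested genes with the largest absolute log2 fold change. Results for 2 genes are not reported here. UGDH, TSPO, CYB5A, FDXR, H6PD, HSD17B8, SUMF1, CYP17A1, SRD5A2 and HSD17B3 were named after their values were seen.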

Additional observations from a re-analysis of the deposited data

How the results depend on the processing

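UGT2B15, UGT2B17, SRD5A1, SRD5A3, LOC730101 and the UGT2B sum kept their direction under every alternative that was run. The alternatives were other scaling factors, filters, DESeq2, other quasi-likelihood settings, counts halved, a replicate block and leaving out each library. UGT2B28 had 0 counts in both siLOC730101 libraries, so its direction was fixed in advance and its stability shows nothing. The UGT2B sum includes its counts. The number of enzyme genes called lower was 0, and 1 (UGT2B28) with no filter beyond 1 count and with the replicate block. UGT2B28 could not be fitted with counts halved. The UGT2B sum ran from -0.95 to -0.35 with 1 library left out. The replicate numbers pair nothing known: deviations of same-numbered libraries correlated at 0.0152.

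The log2 fold changes of 5 results changed sign when 1 library was left out. Without siControl replicate 2, UGT2B11 was 0.31 (range over libraries left out -0.61 to 0.31) and the AKR1C sum 0.15 (-0.50 to 0.15). Without siLOC730101 replicate 2, AKR1C3 was -0.19 (-0.19 to 0.29), and STS and the STS sum, which holds the same counts, were -0.035 (-0.035 to 0.17). None of these was called, and the cause was not tested. Genes of all 19349 called lower numbered 14, and 35 with library size only, 113 with no filter beyond 1 count, 74 with DESeq2, 24 with the legacy method off, 167 with the replicate block, 35 with counts halved and 26 to 272 with 1 library left out, the highest without siLOC730101 replicate 1. Those called higher numbered 41, and 324 with no filter beyond 1 count, 234 with DESeq2, 87 with the legacy method off, 485 with the replicate block, 113 with counts halved and 77 to 923 with 1 library left out, the highest again without siLOC730101 replicate 1. In the list of steroid synthesis and conversion genes, 3 were called higher with no filter, 1 with DESeq2 (TSPO), 3 with the replicate block and 0 to 5 with 1 library left out. The sulfation list had 0 to 1 called higher and the androgen-responsive list 0 to 2 higher and 0 to 1 lower with 1 library left out, and the last had 1 lower (SLC45A3) with the replicate block. In the remaining lists and directions the counts of calls stayed at 0. The UGT2B genes had 0 to 76 counts per library, and the labels do not say whether the libraries came from separate cultures.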
